A study of Mus musculus with 20 samples.

Results

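Genes marked for reproductive process but not for spermatogenesis were examined at their promoters in mouse sperm DNA. Members were the promoters that the deposited table marks for the gene ontology term reproductive process but neither for spermatogenesis, nor for imprinting, nor for the sperm proteome. Of the 1067 promoters with the mark, 615 met these conditions, and 39 of them were left out by gene symbol because they belong to families of developmental transcription factors, nuclear receptors, cytochrome P450 enzymes and DNA methylation enzymes, or are gonadotropin receptor and steroidogenic genes. The remaining 576 promoters were the members, out of 22480 in all. The rule uses no methylation values, but the members and the lists of genes by role were chosen with earlier results of these data known. The members share 574 distinct probes, since Golt1a and Kiss1 were given the same probe, as were Xndc1 and Xntrpc, while the probes of Alkbh1 and Nrp overlap by 2022 bases. The broader mark reproduction was carried by 311 members and was absent from 265, and 11 members were marked for sperm part. The missing mark for spermatogenesis does not exclude a role in germ cells, since 13 members were on a list for meiosis and recombination.

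Reproduction depends on many tissues besides the seminiferous tubule. Kisspeptin and gonadotropin-releasing hormone neurons drive the pituitary, whose hormones act on ovary and testis, and there activins, inhibins, anti-Mullerian hormone and bone morphogenetic proteins regulate follicles and ducts. The placenta, the uterus and the mammary gland serve pregnancy and lactation. Many of these genes act in tissues other than sperm. In male germ cells the methylation of the genome is erased and begins to be laid down again before birth, and promoters dense in CG sites mostly stay unmethylated.

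Sperm was taken at 8 weeks of age from wild type C57BL/6J and FVB/N males whose mothers received by gavage either 300 mg/kg/day of DEHP, bis(2-ethylhexyl)phthalate, a plasticizer, in corn oil or corn oil alone from day 9 to day 19 of gestation. The 4 groups, control and DEHP of either strain, had 5 libraries each, and neither litters nor mothers are given by the labels. Methylated fragments were captured with a methyl binding domain and sequenced (MBD-sequencing), so the signal of a promoter grows with its methylation and with the number of its CG sites. All DEHP libraries, of C57BL/6J as of FVB/N, were made and sequenced in a different batch from the controls, and effects of treatment and of batch cannot be told apart.

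Each promoter probe covers 2000 bases before and 200 bases after the gene start, and the values are the authors' mean and SD of normalized reads over the 5 libraries of a group. The values of individual libraries did not enter, so no test was run and no p-value is given. A log2 ratio is that of 2 group means after adding a pseudocount of 1 to each, given ± its standard error from the authors' SDs. Groups were called separated where their ranges of the mean ± 1.79 SD, with 0.05 added for rounding, lay apart. None of 5 values can lie further than this from their mean, so the libraries of separated groups cannot overlap, and the count of separated promoters is a lower limit. Where 4 values are given in a row below, they are in the order control and DEHP of C57BL/6J, then control and DEHP of FVB/N. Group ranges of the mean ± 1 SD that lay apart were counted as a looser description.

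Summed over all promoters, the group means came to 226268, 153283, 141092 and 150346 normalized reads in that order. The median log2 ratio of DEHP over control over all promoters was -0.10 for C57BL/6J, 0.35 for FVB/N, and that of C57BL/6J over FVB/N was 0.54 in controls and 0.04 in DEHP. Ratios of single members are read against these shifts. Since the sums differ, the sign of a ratio depends on how the groups are scaled, and all values are as deposited unless a scaling is named. As a check of the labelled cell type, H19, a gene methylated on the paternal allele, had a mean signal of 19.9 normalized reads over the 4 groups, above 92.8% of promoters. Of 12 promoters of maternally methylated genes 11 had 2.1 to 5.95, with Nnat (17.2, percentile 90.0) as the exception. Among the 11, Peg3 (5.95, percentile 58.8) and Mcts2 (5.25, percentile 54.5) lay above the median of all promoters, so that not all were low.

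The sequences of 9 member promoters are shown because they stand for the kinds of promoter that the values below turn on. Each is the stretch of 200 bases with the most CG sites before the gene start that overlaps no exon of the GENCODE annotation. They were read from GRCm38.p6, the assembly named mm10, and are written from 5′ to 3′ on the strand of the gene with CG in capitals. The highest signals among members belonged to Hsd17b2 (chr8:117700835-117701034, + strand), Scx (chr15:76457208-76457407, + strand) and Avp (chr2:130582591-130582790, - strand), whose stretches hold 8, 8 and 6 CG sites.
Hsd17b2: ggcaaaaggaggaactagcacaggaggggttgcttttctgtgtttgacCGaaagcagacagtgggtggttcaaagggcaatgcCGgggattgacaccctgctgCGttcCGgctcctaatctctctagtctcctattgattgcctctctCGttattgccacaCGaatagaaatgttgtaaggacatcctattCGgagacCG
Scx: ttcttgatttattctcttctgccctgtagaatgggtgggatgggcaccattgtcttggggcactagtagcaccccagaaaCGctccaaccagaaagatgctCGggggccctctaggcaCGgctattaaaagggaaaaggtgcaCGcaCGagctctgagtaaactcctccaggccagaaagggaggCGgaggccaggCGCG
Avp: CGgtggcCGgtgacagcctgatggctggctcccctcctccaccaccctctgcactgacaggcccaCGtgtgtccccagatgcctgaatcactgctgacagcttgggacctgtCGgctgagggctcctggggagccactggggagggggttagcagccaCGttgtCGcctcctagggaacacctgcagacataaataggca
The promoters of Hes1 (chr16:30063454-30063653, + strand) and Fst (chr13:114459008-114459207, - strand), with 34 and 29 CG sites in the stretch, were among the most CG-rich and had nearly no reads. Igfbp7 (chr5:77408046-77408245, - strand) has 25 CG sites in such a stretch and had a clear signal over its whole probe. Reads are counted over the 2200 bases of a probe, so they cannot be placed within a stretch.
Hes1: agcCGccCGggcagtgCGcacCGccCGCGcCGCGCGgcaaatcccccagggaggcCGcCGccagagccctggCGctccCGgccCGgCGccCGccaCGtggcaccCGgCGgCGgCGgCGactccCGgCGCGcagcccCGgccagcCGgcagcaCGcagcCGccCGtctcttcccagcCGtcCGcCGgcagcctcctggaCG
Fst: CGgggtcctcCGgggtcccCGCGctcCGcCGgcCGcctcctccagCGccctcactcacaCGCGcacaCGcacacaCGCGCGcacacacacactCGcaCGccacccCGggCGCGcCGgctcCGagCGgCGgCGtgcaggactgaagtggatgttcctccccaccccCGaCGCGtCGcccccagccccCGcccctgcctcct
Igfbp7: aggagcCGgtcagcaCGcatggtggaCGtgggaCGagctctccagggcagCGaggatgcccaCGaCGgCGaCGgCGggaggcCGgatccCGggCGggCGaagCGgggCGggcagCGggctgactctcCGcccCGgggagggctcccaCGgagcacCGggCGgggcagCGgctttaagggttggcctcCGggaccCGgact
Promoters poor in CG sites are shown by Bmp15 (chrX:6321231-6321430, - strand), Bmp5 (chr9:75774088-75774287, + strand) and Il1rn (chr2:24335505-24335704, + strand), which hold 5, 4 and 3 CG sites in the stretch and had a higher signal in DEHP than in control libraries in at least 1 strain.
Bmp15: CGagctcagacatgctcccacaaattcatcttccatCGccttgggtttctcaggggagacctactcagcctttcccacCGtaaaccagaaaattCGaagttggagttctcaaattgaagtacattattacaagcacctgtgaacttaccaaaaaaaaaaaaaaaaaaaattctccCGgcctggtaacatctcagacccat
Bmp5: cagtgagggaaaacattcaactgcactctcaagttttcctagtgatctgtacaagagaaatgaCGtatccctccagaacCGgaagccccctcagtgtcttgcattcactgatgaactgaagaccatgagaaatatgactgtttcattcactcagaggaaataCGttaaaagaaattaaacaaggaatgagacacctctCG
Il1rn: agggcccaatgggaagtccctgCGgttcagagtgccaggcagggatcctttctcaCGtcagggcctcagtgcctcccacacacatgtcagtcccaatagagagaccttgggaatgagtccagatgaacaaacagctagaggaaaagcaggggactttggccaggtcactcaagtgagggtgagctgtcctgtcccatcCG

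The signal of the members spanned 0.575 to 45.8 normalized reads as the mean of the 4 groups, with a median of 4.58 (quartiles 2.15 and 9.19), against a median of 4.65 over all promoters. A mean under 1 was found in 30 members (5.21%, against 5.59% of all promoters) and a mean above 20 in 31 (5.38%, against 7.14%). The members were richer in CG sites than promoters at large, with a median of 55 per probe against 45. Signal was highest at an intermediate number of CG sites. The median was 3.65 in the 21 members with 1 to 10 sites, 8.14 in the 130 with 11 to 30, 6.02 in the 167 with 31 to 60, 3.44 in the 194 with 61 to 100 and 1.85 in the 64 with more. All promoters of these classes had medians of 2.05, 8.32, 5.42, 3.78 and 2.17. The members thus followed the general course, apart from the class with fewest sites, where 21 members had a higher median than the 2006 promoters of that class. Base composition differed there as well, with a median GC content of 42.7% in the members against 37.5% over the class. These 21 include 5 pregnancy-specific glycoproteins (Psg), the placental cathepsins Cts7 and Cts8 and the pituitary hormones Prl and Fshb. The rank correlation between CG sites and signal over the 576 members was -0.32 (Spearman), as a description of probes that share libraries and base composition.

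**Figure D1:**
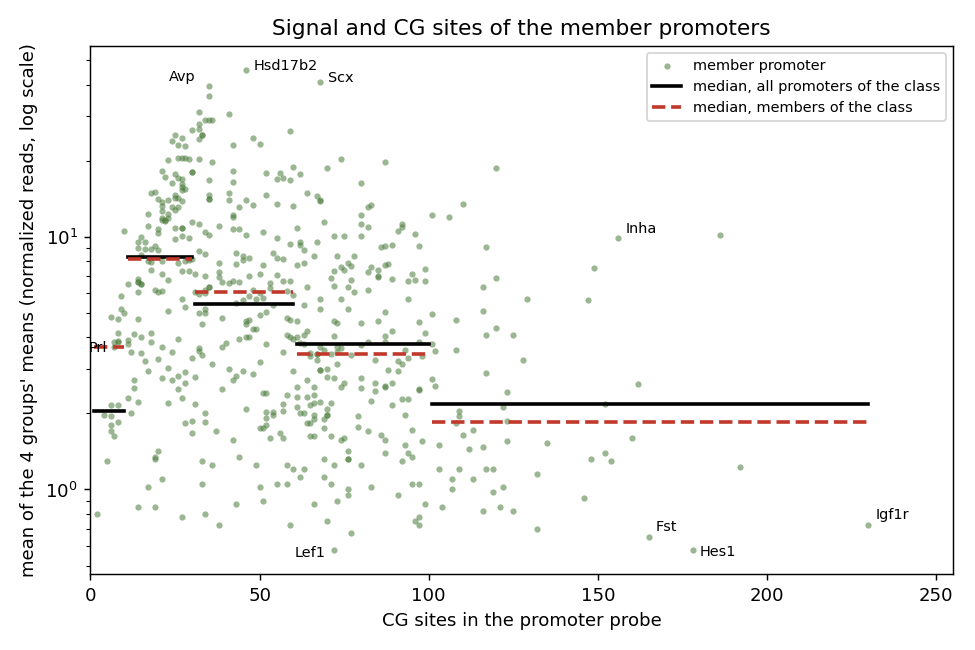
Mean signal of each of the 576 member promoters (y axis, normalized reads, mean of the 4 groups, log scale) by the number of CG sites in its probe (x axis). Black lines give the median of all promoters and dashed red lines that of the members in each class of CG sites; Hsd17b2, Scx and Avp lie on top, Hes1 and Lef1 at 0.575.

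The highest signal of all members was that of Hsd17b2, which codes for the enzyme that oxidizes estradiol and testosterone to less active steroids. Its authors' means were 72.1 (SD 13.5), 25.3 (SD 8.3), 56 (SD 12.6) and 29.6 (SD 5.1) normalized reads. Control groups were thus above DEHP groups in both strains, with separated libraries in C57BL/6J. Next came Scx, a transcription factor of tendons that is also expressed in Sertoli cells, with 73.1 (SD 38.2), 20.6 (SD 10.9), 47.9 (SD 14.3) and 22.1 (SD 7.6). The probe of Scx also overlaps exons of Bop1 and has 68 CG sites, and its signal per CG site was the highest of all members with over 60 sites, followed by Aprt, Tfeb, Fbln1 and Jup. Avp, the gene of vasopressin, followed with 64.2 (SD 23.4), 25.3 (SD 13.5), 39.4 (SD 22.5) and 28.6 (SD 5.9). Neither Scx nor Avp was separated in any comparison as deposited, but with means scaled to equal medians Scx was separated in FVB/N, with DEHP below. Tox2 and Umodl1 had mean signals of 36.0 and 31.1. Oxt, the neighbour of Avp on chromosome 2 that codes for oxytocin, had a mean signal of 8.05 only, with 28 CG sites against 35 for Avp.

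At the other end, the members with over 60 CG sites and the lowest mean signals were Lef1 and Hes1 (0.575 each), Fst (0.65), Arid5b (0.675) and Chd7 (0.70). Lef1 and Hes1 are nuclear effectors of Wnt and Notch signaling, Fst codes for follistatin, which binds activins, and Chd7 remodels chromatin in neurons of the reproductive axis. Hes1 has 178 CG sites in its probe, with 0.9 (SD 1.4), 0 (SD 0), 1.2 (SD 0.9) and 0.2 (SD 0.4) normalized reads. Fst has 165 sites with 1.1 (SD 1.9), 0.2 (SD 0.4), 1.3 (SD 1.1) and 0 (SD 0). Both were listed at 0 in 1 DEHP group, as 10 members were in at least 1 group, and at such means a difference between groups was not detectable. Among developmental families with many CG sites, the 8 Wnt ligands had a median signal of 2.06 and the 9 Frizzled receptors one of 1.65, with Wnt9b (13.1) and Fzd9 (13.5) far above the others.

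The 17 members on chromosome X had a median signal of 1.98 and the 558 on autosomes one of 4.71, close to the 1.65 and 4.82 of all promoters there. Tsx (6.12), Asmt (4.0) and Bmp15 (3.85) had the highest signals on X. A sperm carries either X or Y, apart from the pseudoautosomal region in which Asmt lies. The members on X also had fewer CG sites, with a median of 27 against 57 on autosomes. Fewer DNA copies, fewer CG sites and less methylation per copy cannot be told apart from these values.

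Sorted by role with 10 lists, 266 members had at least 1 role and 310 had none. A gene can be on more than 1 list. Bmp15 and Gdf9 are on the oocyte and activin lists, and Marf1 is on the oocyte and meiosis lists. Counts of different lists can thus hold the same promoters. Median signals ran from 1.77 in the 15 genes of germ cell specification and pluripotency to 7.05 in the 34 genes of oocyte, follicle and zona pellucida. The order of the others was meiosis and recombination (13 genes, 3.12), placenta and implantation (62 genes, 3.85), nuclear receptors and steroid enzymes (21 genes, 4.62), parturition, lactation and mating (37 genes, 5.17), semen and sperm-egg interaction (26 genes, 5.45), gonad and sex ducts (44 genes, 5.79), hypothalamus and pituitary (25 genes, 5.97) and activin, inhibin, anti-Mullerian hormone and BMP signaling (26 genes, 6.11). The range within every list was wider than the distance between these medians. Median CG sites differed as well, with 34 for the oocyte list, 76 for the germ cell list and 22 for semen and sperm-egg interaction.

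**Figure D2:**
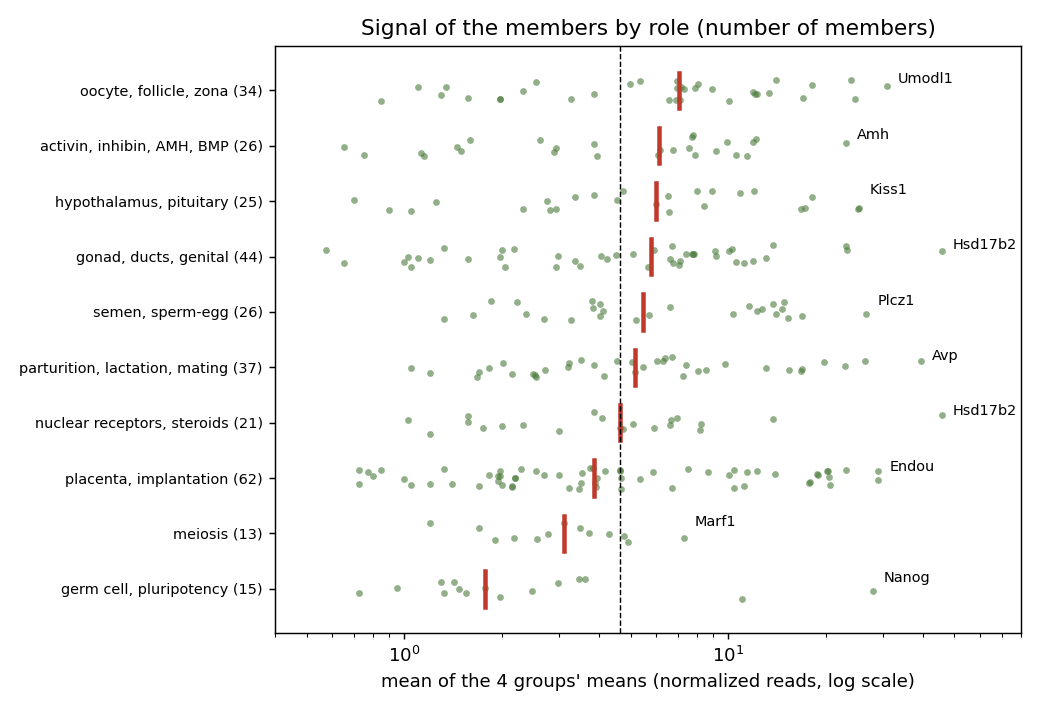
Mean signal of the members of 10 role lists (x axis, normalized reads, mean of the 4 groups, log scale), 1 point per member, with the red bar at the median of the list and the dashed line at the median of all promoters (4.65). The highest member of each list is named; the lists overlap in range, from a median of 1.77 (germ cell, pluripotency) to 7.05 (oocyte, follicle, zona).

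In the comparison of DEHP with control within C57BL/6J, the members had a median log2 ratio of -0.13 (all promoters -0.10). A total of 7 members were separated. DEHP libraries were below control libraries in 6 of them (1.04% of members, background 1.42% of all promoters) and above in 1 (0.174%, background 0.249%). Neither share of the members was above its background. This balance depended on the scaling. With means scaled to equal sums 0 members were separated below (background 0.129%) and 7 above (background 1.02%). Those 7 were Dmrta1, Hfe, Il1rn, Kdm1b, Psg21, Rln1 and Rtcb. With equal medians 10 were separated below (background 1.88%) and 1 above (background 0.222%). With the means ± 1 SD, 66 members had DEHP below (background 11.8%) and 18 above (background 3.67%), and a log2 ratio past 1 was seen in 59 members with DEHP below (background 10.7%) and 23 above (background 5.09%).

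The 6 members below control in C57BL/6J code for an enzyme, a chromatin factor, signaling proteins and an ion exchanger. Hsd17b2, given above, had a log2 ratio of -1.47 ± 0.24. Ctcfl, the germ line paralog of the insulator protein CTCF, had 25 normalized reads (SD 4.8) in controls and 8.7 (SD 3) in DEHP, a log2 ratio of -1.42 ± 0.23, and its probe also overlaps exons of the antisense gene Ctcflos. Arrb1, the adaptor beta-arrestin 1 of G protein-coupled receptors, had 19.2 (SD 2.6) and 6.8 (SD 2.5), a log2 ratio of -1.37 ± 0.22. Each of these promoters also had a lower mean in FVB/N DEHP than in FVB/N controls, at log2 ratios of -0.90 for Hsd17b2, -0.91 for Ctcfl and -0.90 for Arrb1, without being separated there as deposited. With means scaled to equal medians Hsd17b2 and Ctcfl were separated in FVB/N too. Tfeb, a regulator of lysosomes that is needed for the vessels of the placenta, had 28.9 (SD 5.9) and 11 (SD 2.7), a log2 ratio of -1.32 ± 0.19, and in FVB/N 27.9 (SD 6.7) and 13.5 (SD 5.8). The other 2, outside the rule for naming, were Slc8a1, a sodium-calcium exchanger, with 25.3 (SD 3.2) and 10.4 (SD 4.4), and Il10, a cytokine that dampens inflammation, with 30.8 (SD 3.7) and 16.5 (SD 2.6). All 6 had a mean of at least 19.2 in C57BL/6J controls, and scaling all groups to equal sums left 0 of them separated. A call with DEHP below needs the control range to lie wholly above that of DEHP, so it favors high control means. The only member above control was Il1rn, the antagonist of the interleukin-1 receptor, with 1.4 (SD 0.5) in controls and 5.8 (SD 1.6) in DEHP, a log2 ratio of 1.50 ± 0.20. Its probe has 10 CG sites, and in FVB/N the means were 4.2 (SD 3.6) in controls and 8.6 (SD 2.1) in DEHP.

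In FVB/N the median log2 ratio of the members was 0.32 (all promoters 0.35). Here 4 members were separated with DEHP above control (0.694%, background 0.774%) and 3 with DEHP below (0.521%, background 0.859%), again no more than over all promoters. With means scaled to equal medians 0 were separated above (background 0.125%) and 16 below (background 3.25%), and with equal sums 4 above (background 0.627%) and 4 below (background 1.04%). The means ± 1 SD lay apart in 54 members with DEHP above (background 8.69%) and 17 below (background 3.67%), and a log2 ratio past 1 was seen in 68 members above (background 14.4%) and 16 below (background 2.68%).

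The 4 members above control in FVB/N were promoters with few CG sites, 18 to 21 per probe. Bmp15, a growth factor secreted by the oocyte and coded on chromosome X, had 1.2 normalized reads (SD 1.2) in FVB/N controls and 6.6 (SD 1.3) in FVB/N DEHP, a log2 ratio of 1.79 ± 0.37. Bmp5, a bone morphogenetic protein, had 2.9 (SD 1.2) and 12.4 (SD 2.5), a log2 ratio of 1.78 ± 0.23. Ifi27, an interferon-induced gene, had 4 (SD 2.5) and 13 (SD 1.9), and Afp, the gene of alpha-fetoprotein, had 5.6 (SD 2.5) and 16.2 (SD 2.3). In C57BL/6J the means of controls and DEHP were 4 (SD 1.9) and 3.6 (SD 1.8) for Bmp15 and 13.4 (SD 5.1) and 12.4 (SD 3.6) for Afp, so that FVB/N controls were the lowest of the 4 groups. The difference between the strains was not tested, and after scaling to equal medians 0 of the 4 were separated. Ifi27 had 6.4 (SD 2.3) and 12.2 (SD 5.1) and Bmp5 9.4 (SD 3.9) and 12 (SD 3.8) in C57BL/6J controls and DEHP.

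The 3 members below control in FVB/N were Asmt, Igfbp7 and Stox2. Asmt codes for the last enzyme of melatonin synthesis, and it had the most negative log2 ratios of all members, -2.68 ± 0.45 in C57BL/6J and -2.10 ± 0.28 in FVB/N. Its means were 6.7 (SD 4.7), 0.2 (SD 0.4), 8 (SD 1.8) and 1.1 (SD 0.8). In GRCm38.p6, 2000 of the 2200 bases of this probe are unknown, and its 15 CG sites all lie in the remaining bases, so the reads counted for Asmt come from a short stretch. Igfbp7, a secreted protein that binds insulin-like growth factors, had 17.5 (SD 3) and 5.1 (SD 1.5) in FVB/N (log2 ratio -1.60 ± 0.19), and 14.7 (SD 5.4) and 7.5 (SD 3.5) in C57BL/6J. Of its probe, 55.0% is repeat-masked. Stox2 had 21.8 (SD 2.8) and 11.9 (SD 1.5) in FVB/N (log2 ratio -0.82 ± 0.11), and 35.8 (SD 9) and 12.3 (SD 4.3) in C57BL/6J (log2 ratio -1.47 ± 0.26), where it was separated with means scaled to equal medians but not as deposited.

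**Figure D3:**
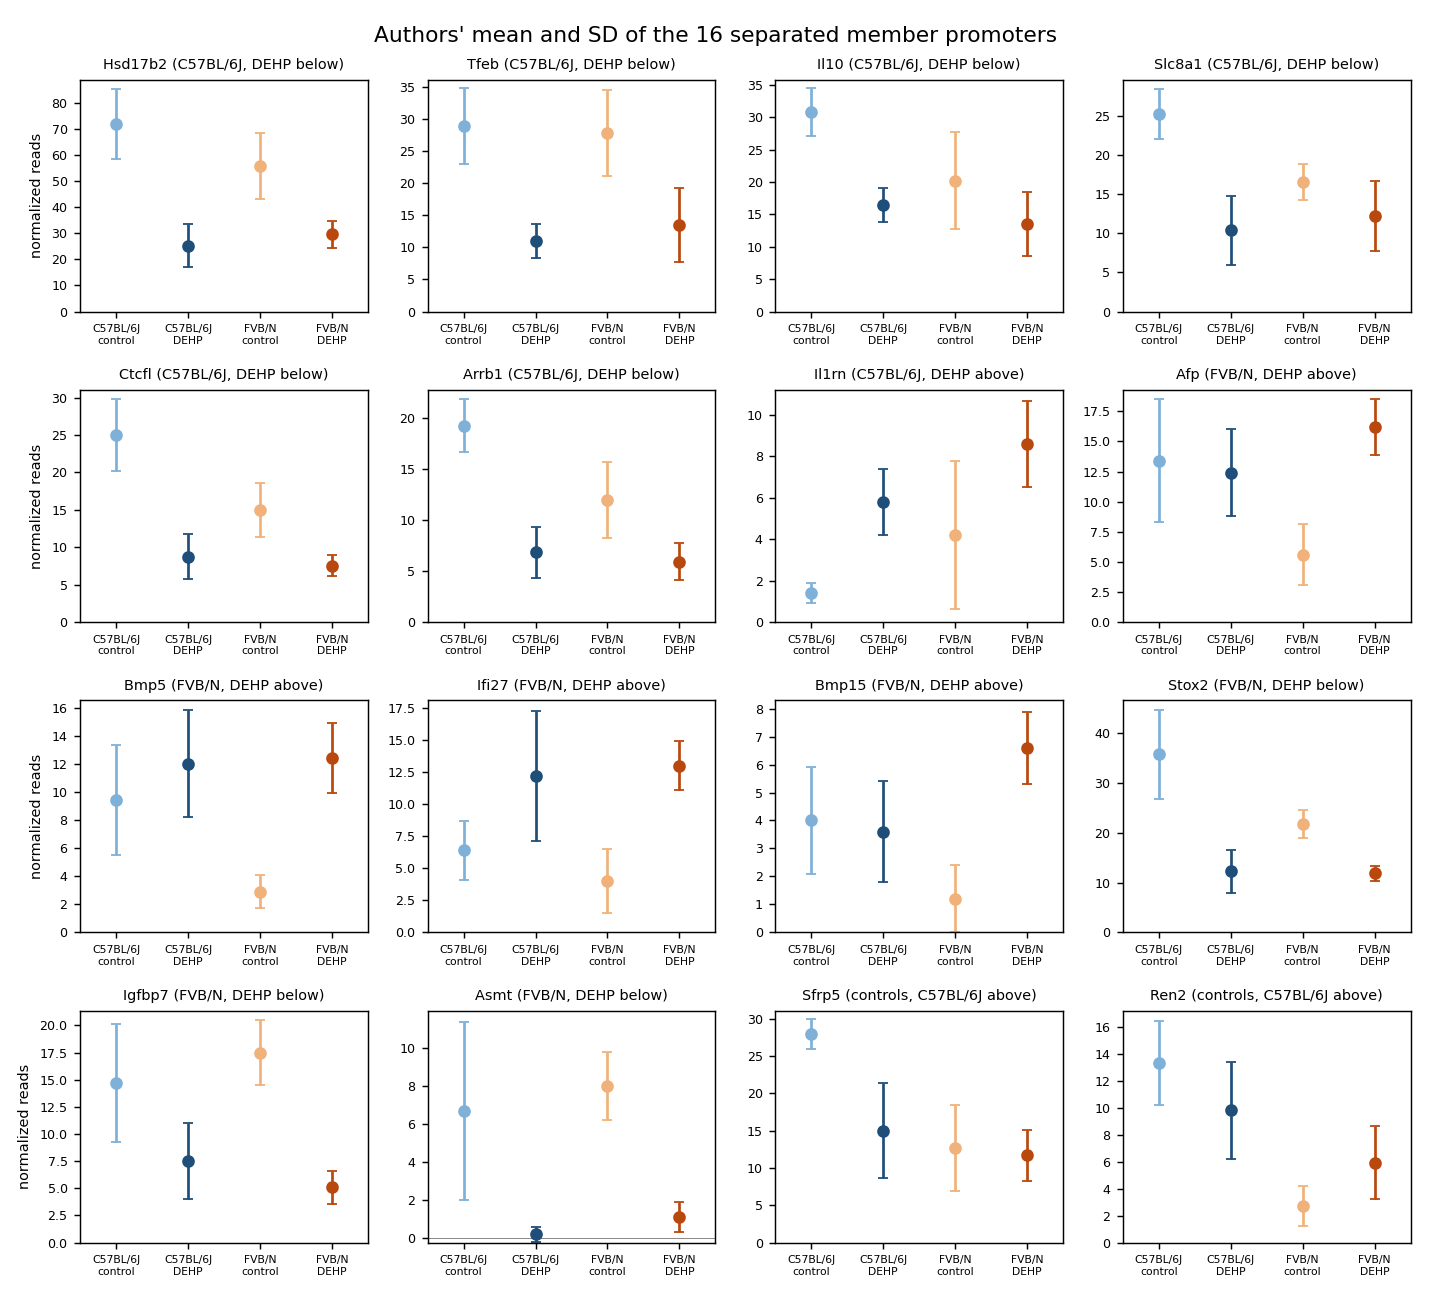
Authors' mean (point) and SD (bar) of normalized reads (y axis) in the 4 groups (x axis, 5 libraries each) for the 16 members separated in at least 1 comparison, named above each panel. Among promoters separated with DEHP below control, the control mean in that strain runs from 8 in Asmt (FVB/N) to 72.1 in Hsd17b2 (C57BL/6J). Those separated with DEHP above have means of at most 16.2. The rule for separation itself favors high control means where DEHP is below.

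As deposited, 0 members were separated in both strains, in the same or in opposite directions. Over all promoters, 0.173% were separated with DEHP below in both strains and 0% with DEHP above in both. With means scaled to equal medians, Ctcfl, Hsd17b2, Stox2 and Tfeb were separated with DEHP below control in both strains (0.694% of members, background 0.587%), while with equal sums 0 members were. By means ± 1 SD, 11 members had DEHP below control in both strains (background 2.66%) and 4 had DEHP above in both (background 0.819%), and 0 went in opposite directions (background 0.0578%). The 11 were Arrb1, Asmt, Bak1, Crhbp, Ctcfl, Cul7, Fzd9, Hsd17b2, Scx, Stox2 and Tfeb, and the 4 were Cts7, Fancl, Marf1 and Rln1, named after their values were seen. A log2 ratio past 1 in both strains was seen in 5 members with DEHP below (Asmt, Bak1, Crhbp, Cul7 and Scx, background 1.76%) and in 6 with DEHP above (Crisp4, Cts7, Dach2, Dmrta1, Fancl and Plag1, background 2.07%). Bak1, an effector of apoptosis, had log2 ratios of -2.08 (C57BL/6J) and -1.38 (FVB/N), and Cul7, a ubiquitin ligase scaffold needed for the placenta, -1.39 and -1.16. In FVB/N Cul7 was separated with DEHP below under both scalings, and Bak1 with equal medians.

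The signs of both ratios were compared for all members. DEHP was above control in both strains in 206 members (35.8%), below in both in 150 (26.0%), below in C57BL/6J but above in FVB/N in 170 (29.5%) and the reverse in 28 (4.86%). Over all promoters these shares were 37.3%, 23.1%, 30.6% and 5.21%. Across the 576 members the log2 ratios of both strains had a Pearson correlation of 0.54 (0.56 across all promoters), as a description of promoters that share libraries, batches and base composition.

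**Figure D4:**
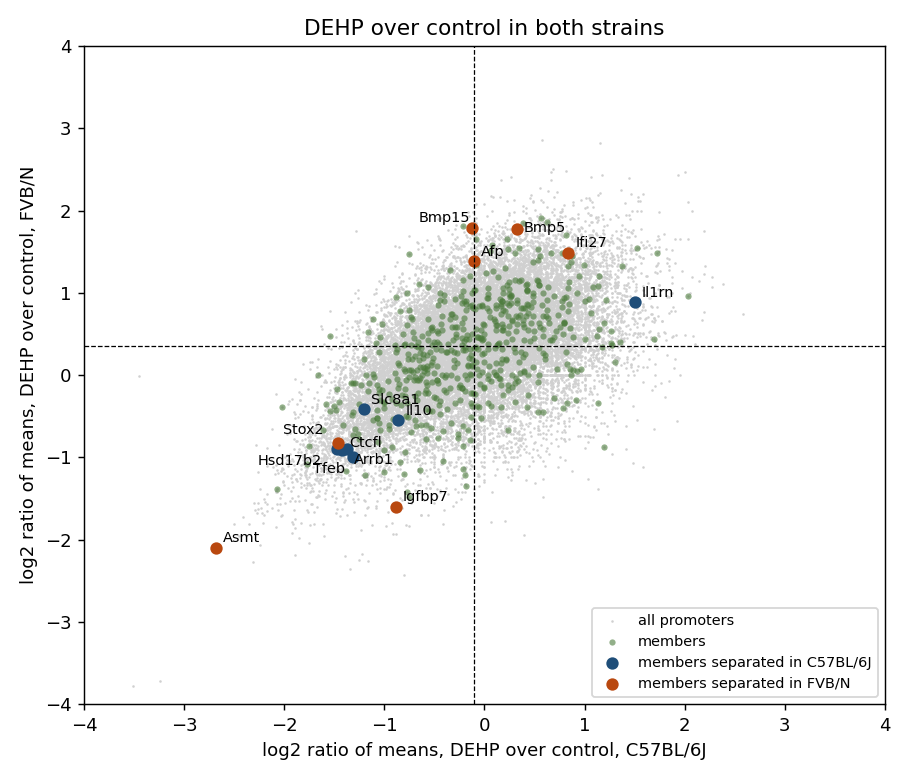
Log2 ratio of means, DEHP over control, in C57BL/6J (x axis) and FVB/N (y axis) for all 22480 promoters (gray) and the 576 members (green), with separated members in blue (C57BL/6J) and orange (FVB/N) and dashed lines at the medians of all promoters (-0.10 and 0.35). Asmt lies at the lower left, and the ratios of separated members have the same sign in both strains except those of Bmp15 and Afp, which are -0.12 and -0.10 in C57BL/6J.

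The ratio moved with the level of signal. In members with a mean signal of 20 or more the median log2 ratio was -1.07 (C57BL/6J) and -0.42 (FVB/N) over 31 members, against -1.13 and -0.44 for all promoters of that level. At a mean of 10 to under 20 the members had -0.65 and 0.12 (100 members), at 3 to under 10 they had -0.03 and 0.55 (238 members), and at 1 to under 3 they had 0.18 and 0.32 (177 members). In the 21 members with at most 10 CG sites the medians were 0.58 and 0.85, against 0.61 and 0.75 over all promoters of that class. Members with a signal of 20 or more thus had lower means in DEHP, and those poor in CG sites higher means, as had the other promoters of their level or class. Treatment and batch cannot be told apart in this. The level is also the mean of the same 4 groups that enter the ratios, so level and ratio are not independent. The 6 members separated below control in C57BL/6J all had a mean signal of at least 10.95, a level that the rule for separation itself favors.

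**Figure D5:**
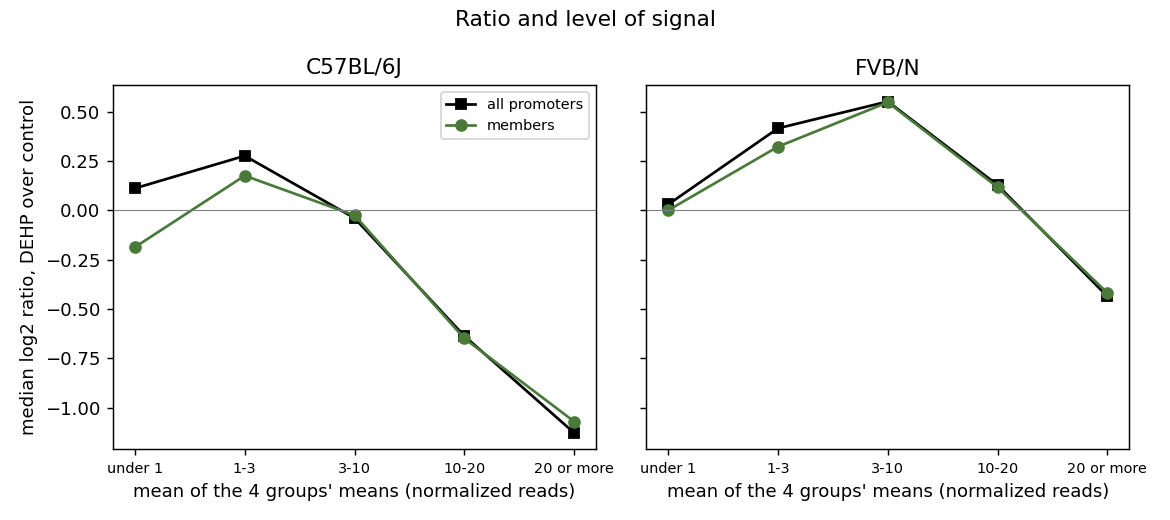
Median log2 ratio of DEHP over control (y axis) by level of signal (x axis, mean of the 4 groups in normalized reads) for the members (green circles) and all promoters (black squares), in C57BL/6J (left) and FVB/N (right). Both lines run close together, down to -1.07 for members of 20 or more reads in C57BL/6J, and under 1 read, where there are 30 members, they part in C57BL/6J (-0.19 for members, 0.11 for all promoters).

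Scaling the group means to equal sums adds 0.56 to each log2 ratio in C57BL/6J and takes 0.09 from each in FVB/N, before the pseudocount, and scaling to equal medians takes 0.08 and 0.71. The medians below can change sign with that choice and are read against those of all promoters, -0.10 and 0.35. By role, DEHP over control is given as the median log2 ratio (C57BL/6J, then FVB/N) and as the number of members past 1. In the hypothalamic and pituitary list the medians were 0.03 and 0.61, with 1 of 25 members below in C57BL/6J (4.0%, background 10.7%), and 4 above (16%, background 14.4%) and 1 below (4.0%, background 2.68%) in FVB/N. Gnrh1, which codes for gonadotropin-releasing hormone, had 6.5 (SD 4), 13.9 (SD 6), 3.9 (SD 2) and 11.4 (SD 3.4) normalized reads. Prl, the gene of prolactin with 7 CG sites, had 2.8 (SD 1.3), 5.5 (SD 1.8), 1.4 (SD 1.6) and 5.7 (SD 3). Both had higher means in DEHP in both strains, without separation. The probe listed for Kiss1, the kisspeptin gene, had the highest signal of the list, with 39.3 (SD 9.4), 18.1 (SD 10.1), 26 (SD 9.1) and 17.8 (SD 3). It is the probe of Golt1a and lies 12052 bases from the GENCODE start of Kiss1, so that it does not measure a kisspeptin promoter. This probe was the 1 member of the list counted below in C57BL/6J.

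For activin, inhibin, anti-Mullerian hormone and BMP signaling the medians were -0.08 and 0.26, with 3 of 26 members below in C57BL/6J (11.5%, background 10.7%), and 5 above (19.2%, background 14.4%) and 1 below (3.85%, background 2.68%) in FVB/N. Amh, the hormone that makes the Mullerian ducts regress, had 38.4 (SD 7.3) in C57BL/6J controls and 13.4 (SD 6.8) in C57BL/6J DEHP, against 22.7 (SD 17.1) and 17.9 (SD 3.8) in FVB/N. Inha, the alpha subunit of inhibin, had 20.1 (SD 11) and 4.2 (SD 2.9) in C57BL/6J (log2 ratio -2.02 ± 0.49), with 156 CG sites in its probe. Nodal had 23.6 (SD 7.5) and 6.3 (SD 2.9), a log2 ratio of -1.75 ± 0.32. These were the 3 below in C57BL/6J. None of the 3 was separated as deposited, and Amh was with means scaled to equal medians. Among ligands in FVB/N, Bmp4 (log2 ratio 1.11 ± 0.38), Bmp5, Bmp15, Gdf9 (1.34 ± 0.39) and Tgfb3 (1.10) were past 1 with DEHP above, and the follistatin gene Fst was past 1 with DEHP below at means of at most 1.3.

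The oocyte, follicle and zona pellucida list had medians of -0.08 and 0.54, with 2 of 34 members above (5.88%, background 5.09%) and 4 below (11.8%, background 10.7%) in C57BL/6J, and 7 above (20.6%, background 14.4%) and 2 below (5.88%, background 2.68%) in FVB/N. Of the 3 genes of the egg coat, Zp1 had 22.6 (SD 7.5), 11.8 (SD 3), 4.7 (SD 8.1) and 10 (SD 1.5). Zp2 had 14.7 (SD 6.1), 17.6 (SD 7), 7.7 (SD 6) and 16.2 (SD 2.3), and Zp3 3.7 (SD 1.9), 3.1 (SD 1.9), 4.8 (SD 1.6) and 1.5 (SD 0.8). The 3 genes did not move alike, with FVB/N log2 ratios of 0.95, 0.98 and -1.21. Marf1, an RNA regulator of oocyte meiosis, had 5.7 (SD 1.7) and 11.3 (SD 3.6) in C57BL/6J and 2.8 (SD 1.4) and 9.4 (SD 4.7) in FVB/N. In the meiosis list (medians -0.19 and 0.45) 0 of 13 members were past 1 in C57BL/6J (backgrounds 5.09% above and 10.7% below), and 2 were above (15.4%, background 14.4%) and 1 below (7.69%, background 2.68%) in FVB/N, the latter being Tex11, an X-linked meiosis gene, with 3.3 (SD 2) in controls and 0.6 (SD 0.8) in DEHP.

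In the placenta and implantation list the medians were -0.13 and 0.19, with 3 of 62 members above (4.84%, background 5.09%) and 8 below (12.9%, background 10.7%) in C57BL/6J, and 7 above (11.3%, background 14.4%) and 2 below (3.23%, background 2.68%) in FVB/N. Cts7 and Cts8, cathepsins of the mouse placenta with 8 and 6 CG sites, had FVB/N means of 0.4 (SD 0.6) in controls for both, and of 2.9 (SD 1.4) and 4.1 (SD 2.7) in DEHP. The 9 Psg genes, which code for secreted glycoproteins of the trophoblast, had medians of 0.63 (C57BL/6J) and 0.56 (FVB/N), 8 of 9 being above 0 in C57BL/6J and 9 of 9 in FVB/N, or 6 of 9 in FVB/N after scaling to equal medians. Of all 2006 promoters with at most 10 CG sites, 86.4% were above 0 in C57BL/6J and 89.4% in FVB/N. After scaling to equal medians 73.8% of them were above 0 in FVB/N. Of the 5787 promoters with 11 to 30 sites, 2453 were above 0 in C57BL/6J and 4547 in FVB/N. Over all 22480 promoters these counts were 9783 and 15533. Not all 9 Psg genes have at most 10 sites, so the share of that class is not the background of them all. The Psg genes have a median of 9 CG sites and belong to 1 gene family on chromosome 7. Psg17, with 23 sites and the highest signal (12.3), was the one below 0. The transcription factor Gcm1, which forms the labyrinth, had 29.8 (SD 4.6) and 16.5 (SD 6.2) in C57BL/6J and 14.7 (SD 9.8) and 21.1 (SD 8.4) in FVB/N, while Hand1, with 71 sites, had at most 3.6 in any group.

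The gonad and sex duct list had medians of -0.17 and 0.26, with 2 of 44 members above (4.55%, background 5.09%) and 5 below (11.4%, background 10.7%) in C57BL/6J, and 6 above (13.6%, background 14.4%) and 2 below (4.55%, background 2.68%) in FVB/N. Dmrta1, of the doublesex family, had 1.4 (SD 0.5) and 4.3 (SD 1.3) in C57BL/6J and 0.3 (SD 0.6) and 2 (SD 1.6) in FVB/N. In the nuclear receptor and steroid enzyme list (medians -0.20 and 0.46) 1 of 21 members was above (4.76%, background 5.09%) and 5 were below (23.8%, background 10.7%) in C57BL/6J, and 2 were above in FVB/N (9.52%, background 14.4%). Besides Hsd17b2, Srd5a2, the enzyme that makes dihydrotestosterone, had at most 1.9 normalized reads in any group. Semen and sperm-egg interaction had medians of -0.07 and 0.54, with 1 of 26 above (3.85%, background 5.09%) and 1 below (3.85%, background 10.7%) in C57BL/6J, and 5 above (19.2%, background 14.4%) and 1 below (3.85%, background 2.68%) in FVB/N. Plcz1, the sperm factor that activates the egg, had 36.3 (SD 9.8), 24.3 (SD 6.5), 25 (SD 9.9) and 21.3 (SD 5.2), while Crisp4, an epididymal protein with 7 sites, had 0.5 (SD 0.6), 3.3 (SD 1.5), 0.2 (SD 0.5) and 2.5 (SD 1.8).

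Parturition, lactation and mating had medians of -0.11 and 0.37, with 2 of 37 above (5.41%, background 5.09%) and 4 below (10.8%, background 10.7%) in C57BL/6J, and 5 above in FVB/N (13.5%, background 14.4%). Rln1, the gene of relaxin, was listed at 0 (SD 0) in C57BL/6J controls, with 3.1 (SD 1.6), 0.9 (SD 0.5) and 2.7 (SD 1.1) in the groups that follow. The germ cell list had the lowest median in FVB/N, -0.14, and -0.25 in C57BL/6J, with 1 of 15 above (6.67%, background 5.09%) and 1 below (6.67%, background 10.7%) in C57BL/6J and 1 below in FVB/N (6.67%, background 2.68%). Nanog, a pluripotency factor, had 50.3 (SD 26.9), 15.8 (SD 5.8), 28.5 (SD 19.2) and 17.6 (SD 5.1) and is far above the rest of this list, whereas Igf1r, with 230 CG sites, had at most 1.8. Kitl, the ligand of the receptor Kit that supports germ cells, had 1.2 (SD 1.2) and 4.3 (SD 2.2) in C57BL/6J and 0.9 (SD 1.0) and 1.5 (SD 0.5) in FVB/N. The 310 members without a role list had medians of -0.16 and 0.32.

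The comparison of strains in control libraries gave a median log2 ratio of C57BL/6J over FVB/N of 0.52 (all promoters 0.54). Separated were 2 members with C57BL/6J above (0.347%, background 1.06%) and 0 with C57BL/6J below (background 0.0267%). After scaling to equal sums or equal medians 0 were. Ren2 had 13.3 (SD 3.1) in C57BL/6J and 2.7 (SD 1.5) in FVB/N controls, a log2 ratio of 1.95 ± 0.30, and Sfrp5, a secreted antagonist of Wnt ligands, 27.9 (SD 2) and 12.7 (SD 5.8), a ratio of 1.08 ± 0.28. The probe named Ren2 overlaps an exon of the renin gene Ren1 and holds 30 variants between the strains, and that of Sfrp5 holds 24. A mean ± 1 SD lay apart in 48 members above (background 9.84%) and 2 below (background 0.258%), and 88 members were past 1 above (background 16.4%) and 2 below (background 0.556%). Of the 23 members with at least 20 variants in the probe, 7 were past 1 with C57BL/6J above, and of all 1321 such promoters 609 were. In DEHP libraries the median was 0.04 (all promoters 0.04), with 0 members separated in either direction (backgrounds 0.307% and 0.0311%). By means ± 1 SD, 11 members lay above in C57BL/6J (background 2.68%) and 4 below (background 0.703%). Ren2 had 9.8 (SD 3.6) and 5.9 (SD 2.7) in C57BL/6J and FVB/N DEHP. The strain comparison in controls and the comparison with DEHP share the control libraries.

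The spread between libraries differed by group. In members with a mean of 5 to under 10 normalized reads the ratio of SD to mean had medians of 0.387, 0.369, 0.603 and 0.352. FVB/N controls were thus the most variable group at this level, over all promoters too (0.628), which widens their ranges in both comparisons that use them. At means of at least 20 the ratio was larger in C57BL/6J DEHP (0.371, 10 members) than in FVB/N controls (0.35, 29 members).

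The deposited table also holds expression values of each gene in testis cells, which come from an independent dataset and have no stated scale. Of the members 544 have a value. Their median was 5.27 in spermatids and 5.06 in spermatocytes, against 5.68 and 5.67 over all genes with a value and 7.75 and 7.71 in the 368 genes marked for spermatogenesis. In Sertoli cells and spermatogonia the medians were 5.85 and 5.93, against 5.71 and 5.80 over all genes. The members were thus not low in somatic cells or spermatogonia of the testis, and low in the later germ cells, where the removal of genes of spermatogenesis and of the sperm proteome already acts on the choice. Promoter signal in sperm had at most a weak relation to these values over the members. Spearman correlations were -0.12 in spermatogonia and -0.09 in Sertoli cells (-0.15 and -0.13 over all genes with a value). In spermatids and spermatocytes they were 0.04 and 0.02 (-0.01 and -0.06 over all genes with a value).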

How the data were processed

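MBD-sequencing of sperm DNA was used from 20 libraries, 5 per group, grouped by the strain and treatment in their labels. Read-pairs were mapped by the authors to mm10 using Bowtie 0.12.7, who discarded pairs with several positions or no CpG, kept probes with enough read-pairs, and normalized counts with edgeR (versions as given in the submitters' processing notes). The deposited signal values are the authors' group means of normalized reads per promoter, with their SDs, both with 1 decimal. Depth of single libraries is unknown here, so precision rests on these SDs. The expression columns are a score per gene whose scale the authors do not state in the sources used here. Columns with the authors' log2 fold changes, p-values and FDR between groups were not used. The group means have unequal sums, so their ratios need not be on the scale of those fold changes, and the sign of a ratio rests on the scaling. The CG sites, variants and testis expression are columns of no sample.

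The planned fallback for group means applied, with no test. Log2 ratios with a pseudocount of 1, separation at 1.79 SD, looser ranges of 1 SD and counts past 1 were computed for all 22480 promoters, and the script was tested on simulated data. Every promoter had passed the authors' filter on low read numbers, and no further filter was set. Members were the rows with the reproductive process flag that lack the flags for spermatogenesis, imprinting and sperm proteome, after removal by symbol. Members and gene lists were chosen with earlier results of these data known. Named were separated members, at most 4 per strain and direction, the extremes of signal, the extremes of each role list and textbook examples. Probes were checked against GRCm38.p6, in which 90.3% of member probes have the deposited number of CG sites. Of the members, 563 have a GENCODE start of the same name, 513 of them within 100 bases, and 145 probes overlap an exon of another gene. Sequences came from the same RefSeq assembly. Alternatives were 2 SD, a pseudocount of 0.1, a filter on means of at least 3, scaling to equal sums or equal medians, centring on classes of CG sites, and autosomes alone. The tools were Python 3.11.15, pandas 2.3.3, numpy 2.4.6, pysam 0.24.0, matplotlib 3.10.9 and samtools 1.23.1.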

Additional observations from a re-analysis of the deposited data

How the results depend on the processing

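Scaling moved most counts of separated members, and the depth of single libraries is unknown, so no interval from counts can be given. With means scaled to equal sums, 7 members were separated with DEHP above (background 1.02%) and 0 below (background 0.129%) in C57BL/6J (1 and 6 as deposited). Between controls 0 were (2 as deposited), against a background of 0.307% with C57BL/6J above. With equal medians, 10 were separated below in C57BL/6J (background 1.88%). In FVB/N 0 were above (background 0.125%) and 16 below (background 3.25%), against 4 and 3 as deposited. Between controls 0 were, against a background of 0.289% with C57BL/6J above. With 2 SD, 0 were separated above in C57BL/6J (background 0.142%) and 1 between controls with C57BL/6J above (background 0.698%). The median log2 ratio over members turned to 0.33 (equal sums) and 0.016 (centred on classes of CG sites) in C57BL/6J, to -0.22 (equal medians) and -0.0022 (centred) in FVB/N, to -0.012 (equal sums), -0.058 (equal medians) and -0.026 (centred) between controls, and to -0.012 (means of at least 3) and -0.054 (equal medians) between DEHP groups. The medians of all promoters moved alike, to 0.33 in C57BL/6J with equal sums and -0.18 in FVB/N with equal medians. Members past 1 numbered 82 (14.2%, against 15.8% of all promoters) in C57BL/6J and 84 (14.6%, against 17.0%) in FVB/N. With a pseudocount of 0.1 they were 126 (21.9%, against 26.1%) and 163 (28.3%, against 31.2%), and with means of at least 3 they were 51 (8.85%, against 10.01%) and 24 (4.17%, against 5.05%). Asmt, Igfbp7 and Stox2 stayed separated in FVB/N, and Il1rn in C57BL/6J, under both scalings. All other alternatives kept direction and stayed within 1.5 times the count, or moved the median by less than the spread of libraries. That spread is the median over members of the SD of a ratio from the authors' SDs, a wide allowance for a median. With means of at least 3 the median was -0.24 in C57BL/6J (-0.13 as deposited) and 0.18 in FVB/N (0.32 as deposited). Leaving out single libraries was not run, since only group means and SDs were used. No paired analysis was possible because the labels give the groups no shared replicate numbers.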
